A study of Homo sapiens with 39 samples.

Results

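The comparison described here is OTX015 against DMSO in OCILy10, a human diffuse large B cell lymphoma line that is classed as the activated B cell type. It uses 6 of the 39 RNA-seq libraries of the series: OCILy10 cells with OTX015 (replicates 1 to 3), against OCILy10 cells with DMSO (replicates 1 to 3), each labelled as treated for 6 h. The shared protocol text of the series names a longer treatment and other compounds, and the sample labels were followed here. OTX015 (birabresib) is a BET bromodomain inhibitor and DMSO is its vehicle. The libraries were chosen by their cell line and treatment labels, and a term for sequencing depth (a library total over or under 5000000 counts) was part of the fit. For context the series also holds OCILy10 with NEO2734, known as an inhibitor of both BET and CBP/p300 bromodomains, and OTX015 against DMSO in DOHH2, TMD8 and Toledo, which are other B cell lymphoma lines. OCILy10 is a cultured line, so the libraries hold no variation between patients. The labels give no doses and are silent on separate cultures, so the p-values here speak only of library-to-library spread, which may be technical.

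BET proteins, among them BRD2 and BRD3, bind acetylated histones through their bromodomains and help to bring the elongation kinase P-TEFb, made of CDK9 and a T-type cyclin, to promoters and enhancers. BET inhibitors release them from chromatin. HEXIM1, which holds P-TEFb inactive within the 7SK ribonucleoprotein, is widely used as a marker of exposure to these compounds because its RNA rises, while genes under strong lineage enhancers often fall. In B cells those lineage genes include PAX5, a transcription factor of B cell identity, and parts of the B cell receptor pathway.

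Totals of the 3 OTX015 libraries lay between 1452155 and 11668542 counts and those of the 3 DMSO libraries between 2083572 and 10044245 counts. Only replicate 1 of the OTX015 libraries was deep (over 5000000 counts), against replicates 1 and 2 of the DMSO libraries, so depth and treatment were not balanced. Over all 39 libraries the depth term itself passed the test for 59.6% of 12814 genes. Mitochondrially encoded genes took 7.49 to 10.5% of counts with OTX015 and 7.10 to 11.6% with DMSO. The 10 genes private to OCILy10 in this series stood at 83.3 to 116% of their usual level in the 6 libraries, and those of the other lines at no more than 0.594%. A gene was taken as private to a line by its level in this series. The cut-offs were a minimum of 10 CPM in that line and, elsewhere, a 90th percentile of at most 1 CPM. These percentages therefore follow in large part from the choice of genes and are no independent check of the line. Of 39 libraries, 3 outside the comparison held genes of a line other than the labelled one: the library labelled Toledo DMSO replicate 2 had the OCILy10 genes at 72.2% of their level, the library labelled OCILy10 CB103 (a NOTCH pathway inhibitor) replicate 2 had the Toledo genes at 25.8%, and the library labelled DOHH2 NEO2734 replicate 3 had the OCILy10 genes at 10.6%. These 3 stayed in the shared fit.

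The cells expressed B cell genes. MS4A1, the B cell surface protein CD20, had 747, 639.6 and 619 CPM with OTX015, against 1401, 1249 and 974 CPM with DMSO, where CPM are counts scaled to library totals with TMM factors. CD79A, a signalling chain of the B cell receptor, had 305, 277 and 749 CPM with OTX015, against 219, 217 and 623 CPM with DMSO. Both genes were well expressed in all 6 libraries, and neither passed the test (adjusted p = 0.545 for MS4A1 and 0.95 for CD79A). The 8 markers of the activated B cell type summed to 2287 to 2848 CPM with OTX015 and 2992 to 4064 CPM with DMSO, against 57.3 to 82.5 CPM and 73.3 to 83.5 CPM for the 7 markers of the germinal centre type. The germinal centre marker SERPINA9 had 0 counts with OTX015. Single markers did not all separate the lines of the series. With DMSO, IRF4 of the activated set averaged 777 CPM in OCILy10, 1416 in TMD8, 748 in DOHH2 and 341 in Toledo. LMO2 of the germinal centre set averaged 0.45, 29.7, 0.19 and 0.23 CPM in the same order. The sums therefore describe OCILy10 and do not test its type. Of 5 T cell markers 2 were in the table, CD2 and TRAC, the constant region of the T cell receptor alpha chain, and they summed to 3.77 to 8.28 CPM with OTX015 and 24.6 to 78.8 CPM with DMSO. CD3D, CD3E and CD3G are not analysed here. Neither gene passed the test (TRAC log2 fold change -3.19 ± 0.84 SE, adjusted p = 0.0606; CD2 -2.52 ± 1.06, adjusted p = 0.343). In bulk samples such as these, fewer cells of a type and less RNA per cell cannot be told apart, and the part of these genes in the results was not tested.

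The first question was which genes differed between OTX015 and DMSO at the labelled 6 h. In edgeR's quasi-likelihood test, 109 genes (0.851% of 12814 tested) had a Benjamini-Hochberg adjusted p under 0.05. Of these 58 rose (0.453%) and 51 fell (0.398%), and the fitted change was at least 2-fold for 34 of the rises and 43 of the falls. Rises lay between 0.60 and 3.84 on the log2 scale with a median of 1.07, and falls between -0.65 and -5.23 with a median of -1.92. Over all genes tested the median log2 fold change was -0.02. Of the 109 genes, 102 were protein coding.

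Among the rises DHRS2 had the largest fold change and ALKBH5 the lowest p, and among falls of more than a few counts the cytokine gene IL12B and the interferon-induced gene IFI44L were lowest on the log2 scale. In 100 of the 109 the 3 OTX015 and 3 DMSO libraries did not overlap, a property that 12.6% of all genes tested had and that follows in part from the test. All 109 had the fitted sign both within the deep and within the shallow libraries, as had 62.7% of all genes tested. The number called depended on single libraries and on the depth term: it was 13 without OTX015 replicate 1, 35 without OTX015 replicate 3, 61 without DMSO replicate 1, 36 without DMSO replicate 3, 9 with no depth term and 372 without the 3 libraries that held genes of another line, among which were all 109.

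**Figure D1:**
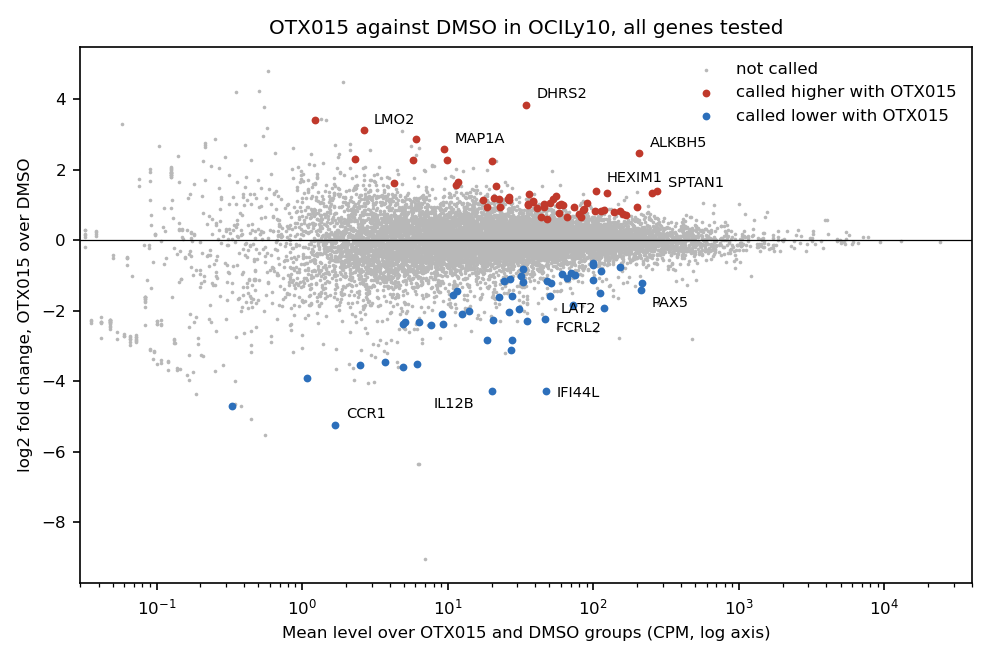
Fitted log2 fold change (OTX015 over DMSO) against the mean CPM of both groups (log axis) for all 12814 genes tested in OCILy10. Red points are the 58 genes called higher with OTX015, blue points the 51 called lower, and grey points genes not called; ALKBH5 and HEXIM1 lie above 100 CPM, whereas CCR1, the lowest called gene on the log2 scale, lies near 2 CPM.

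ALKBH5 (ENSG00000091542.8, GRCh38 chromosome 17, 18183078 to 18209954) encodes a demethylase that removes N6-methyladenosine from RNA. It had 276, 303 and 485 CPM in the OTX015 libraries, against 49.0, 50.4 and 74.8 CPM in the DMSO libraries. The lowest OTX015 library lay well above the highest DMSO library. The fitted rise was 5.52-fold (log2 2.46 ± 0.20, adjusted p = 5.42e-09), the lowest adjusted p of the comparison. The log2 ratio was 2.46 within the deep and 2.39 within the shallow libraries. ALKBH5 overlaps the annotated gene AC087164.1 on the opposite strand, and HEXIM1 overlaps AC138150.1, so their counts may hold reads of both.

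HEXIM1 (ENSG00000186834.3, chromosome 17, 45148502 to 45152101) is the P-TEFb inhibitor introduced above. It had 113, 121 and 244 CPM with OTX015, against 35.3, 42.0 and 73.8 CPM with DMSO, and the groups did not overlap. It rose 2.65-fold (log2 1.40 ± 0.23, adjusted p = 0.00194), with log2 ratios of 1.53 within the deep and 1.30 within the shallow libraries. With no depth term its adjusted p was 0.185.

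DHRS2, on chromosome 14 from 23630115 to 23645639 and a member of the short-chain dehydrogenase/reductase family, had the largest rise, 14.3-fold (log2 3.84 ± 0.58, adjusted p = 0.00114). It had 93.7, 55.8 and 41.5 CPM with OTX015, against 4.26, 8.49 and 4.02 CPM with DMSO. Every OTX015 library was above every DMSO library. With no depth term its adjusted p was 0.0771.

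The promoter windows of these 3 genes, from 250 bases before to 50 after the RefSeq start on GRCh38.p14, are shown because the genes are the rises that the comparison turns on. That of IFI44L is shown because it had the largest fall among the interferon-stimulated genes described further on. Capitals mark matches to TATAAA, the element that positions the start of transcription (called the TATA box from here on), to CCAAT, which the factor NF-Y binds, to the GC box GGGCGG, which SP1 binds, or to the core of an interferon-stimulated response element (GAAA, any 2 bases and GAAA again), on either strand, chosen after the values of these genes were known. The windows are chr17:18183578-18183877 for ALKBH5, chr17:45148225-45148524 for HEXIM1, chr14:23629865-23630164 for DHRS2 and chr1:78620198-78620497 for IFI44L, all on the plus strand.
ALKBH5: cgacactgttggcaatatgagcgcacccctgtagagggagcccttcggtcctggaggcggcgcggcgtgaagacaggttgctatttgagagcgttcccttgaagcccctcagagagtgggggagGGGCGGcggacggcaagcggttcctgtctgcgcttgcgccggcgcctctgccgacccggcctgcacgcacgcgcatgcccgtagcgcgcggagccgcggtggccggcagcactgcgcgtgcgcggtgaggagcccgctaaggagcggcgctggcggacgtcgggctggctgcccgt
HEXIM1: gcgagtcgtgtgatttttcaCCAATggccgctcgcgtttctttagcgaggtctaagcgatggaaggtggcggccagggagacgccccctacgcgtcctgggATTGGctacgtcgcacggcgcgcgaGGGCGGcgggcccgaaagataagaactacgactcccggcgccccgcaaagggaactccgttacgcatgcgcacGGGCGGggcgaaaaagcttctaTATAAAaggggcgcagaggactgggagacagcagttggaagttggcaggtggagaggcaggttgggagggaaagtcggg
DHRS2: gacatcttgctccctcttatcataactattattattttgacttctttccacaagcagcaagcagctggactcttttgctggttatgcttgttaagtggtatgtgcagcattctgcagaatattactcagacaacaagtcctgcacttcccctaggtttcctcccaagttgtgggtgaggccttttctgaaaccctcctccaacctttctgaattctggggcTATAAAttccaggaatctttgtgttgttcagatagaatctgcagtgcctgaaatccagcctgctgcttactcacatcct
IFI44L: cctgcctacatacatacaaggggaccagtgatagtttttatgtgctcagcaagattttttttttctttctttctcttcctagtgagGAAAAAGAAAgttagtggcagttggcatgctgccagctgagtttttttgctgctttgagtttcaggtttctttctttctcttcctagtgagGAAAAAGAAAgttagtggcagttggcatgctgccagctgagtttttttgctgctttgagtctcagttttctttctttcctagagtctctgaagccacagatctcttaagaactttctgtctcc
The window of ALKBH5 held a GC box and no TATA box, that of DHRS2 a TATA box and no GC box, and that of HEXIM1 a TATA box, CCAAT boxes on both strands and GC boxes. That of IFI44L held the interferon element core at 2 places and none of the other 3 motifs. Among called falls with a window, the core was found only for IFI44L, CEACAM1 and JAML. The other interferon-stimulated genes that fell, APOL6, TRIM22 and XAF1, were not among them, so IFI44L does not stand for that list.

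A further 11 genes with at least 5 CPM in a group and groups that did not overlap made up the 14 largest rises. MAP1A, a microtubule-associated protein, had 11.2, 15.1 and 23.7 CPM with OTX015, against 1.38, 2.30 and 3.01 CPM with DMSO (log2 2.59 ± 0.50, adjusted p = 0.0076). SPTAN1, the alpha chain of spectrin, had 587, 234 and 355 CPM with OTX015, against 155, 205 and 117 CPM with DMSO (log2 1.39 ± 0.27, adjusted p = 0.00846). CYTH3, an exchange factor for ARF GTPases, rose 3.13-fold and RAPGEF2, an exchange factor for RAP GTPases, 2.89-fold, with adjusted p of 0.0131 and 0.0115.

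Others were the protein kinase MAK (log2 2.87 ± 0.57), the p53 partner PPP1R13B (2.28 ± 0.38), TEX14, a protein of germ cell bridges (2.27 ± 0.51), C12orf57 (2.25 ± 0.53), the centrosomal protein CEP85L (1.62 ± 0.39) and the membrane protein SERINC5 (1.57 ± 0.37), with adjusted p between 0.00216 for PPP1R13B and 0.0377 for CEP85L. TAF9, a subunit of the general transcription factor TFIID, had 205, 148 and 157 CPM with OTX015, against 93.5, 77.9 and 63.7 CPM with DMSO (log2 1.35 ± 0.22, adjusted p = 0.0015). TAF9 shares its locus and strand with AK6, and MAK, PPP1R13B and SPTAN1 overlap TMEM14B, ZFYVE21 and WDR34 on the opposite strand, so their counts may hold reads of both genes. Of the 14 rises, DHRS2, ALKBH5, HEXIM1 and TAF9 kept their call whichever of the 6 libraries was left out. The other 10 lost it at least without OTX015 replicate 1, and their highest adjusted p with 1 library left out lay between 0.0694 for MAP1A and 0.221 for CEP85L.

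LMO2, a LIM domain partner of transcription factors, was among the called rises below the 5 CPM limit. It had 5.26, 6.03 and 3.23 CPM with OTX015, against 0.639, 0.720 and 0 CPM with DMSO (log2 3.13 ± 0.60, adjusted p = 0.00737). It was counted here as a marker of the germinal centre type, although its DMSO level was highest in TMD8 among the lines of the series. RELL1, of the RELT family, had 31 counts over the OTX015 libraries and 3 over the DMSO libraries, a ratio of 13.02 with a 95% counting interval of 4.06 to 66.5. Both are low in these cells, both lost their call without OTX015 replicate 1 (adjusted p of up to 0.0915 for LMO2 and 0.145 for RELL1), and the interval covers counting error only. At higher levels, SLC25A4, which exchanges ATP and ADP across the inner mitochondrial membrane, had 92.2, 145 and 143 CPM with OTX015, against 55.1, 51.5 and 59.7 CPM with DMSO (log2 1.06 ± 0.17, adjusted p = 0.0015).

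**Figure D2:**
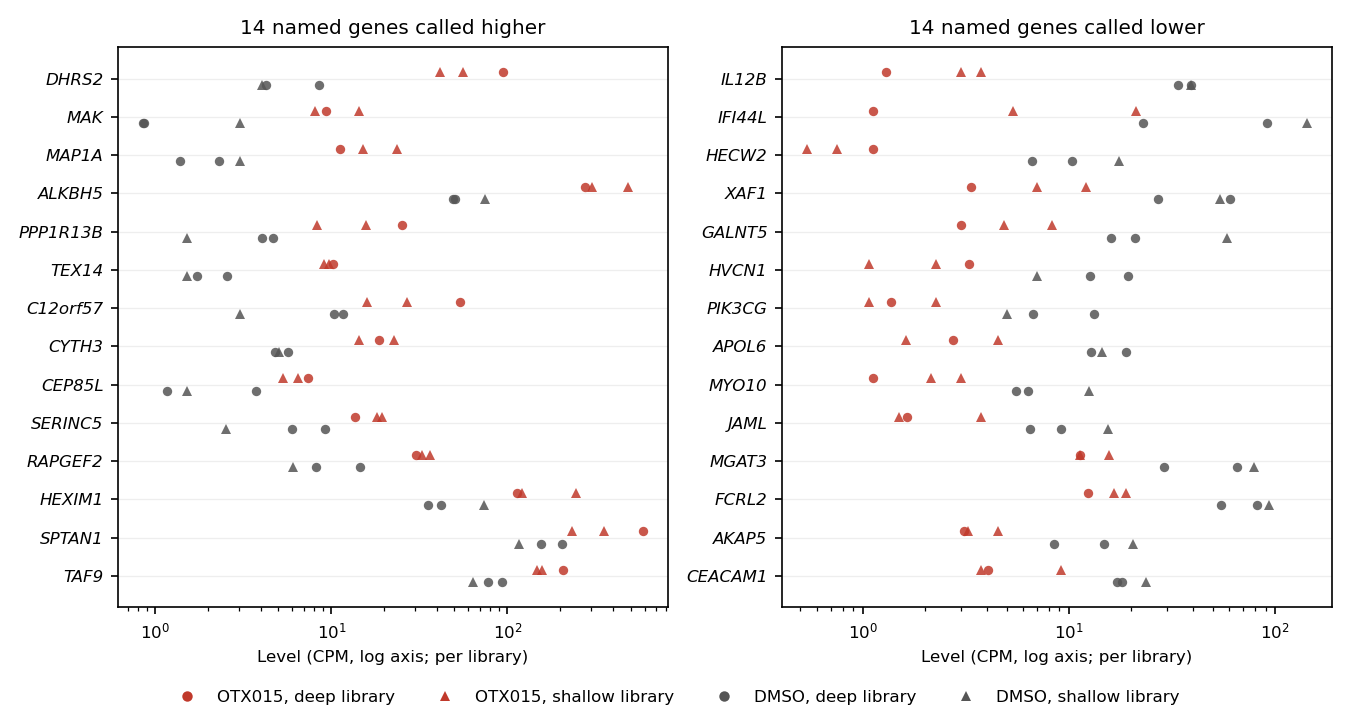
CPM (log axis) in each library for the 14 named rises (left panel) and the 14 named falls (right panel); red marks OTX015 and grey DMSO, circles deep and triangles shallow libraries. For each gene the red and grey symbols do not overlap, which the rule for naming them required.

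Of the genes that fell, PAX5 (ENSG00000196092.11, chromosome 9, 36833275 to 37034185), the transcription factor that maintains B cell identity, was among the most abundant. It had 129, 88.2 and 123 CPM with OTX015, against 228, 352 and 352 CPM with DMSO. The ratio of OTX015 to DMSO was 0.374 (log2 -1.42 ± 0.22, adjusted p = 0.0015), and PAX5 kept its call whichever of the 6 libraries was left out and with no depth term (adjusted p = 0.00407). POU2AF1, the B cell coactivator of octamer factors, had 109, 198 and 123 CPM with OTX015, against 240, 206 and 431 CPM with DMSO (log2 -1.21 ± 0.30, adjusted p = 0.0431). The groups were apart by little for POU2AF1, and its call was lost whichever library was left out. Of 27 tested B cell transcription factors these 2 fell and none rose, where 0.398% of all genes tested fell, and the median log2 fold change of the list was -0.44. ARID5B (-1.21 ± 0.36, adjusted p = 0.0994) and EBF1 (-1.28 ± 0.40, adjusted p = 0.129), an early B cell factor, came next and did not pass. Members of this and the later lists were chosen with earlier results of these data known, so shares of a list are described and not tested. IRF4, the factor that marks the activated B cell type and plasma cells, had 481, 388 and 645 CPM with OTX015, against 742, 759 and 829 CPM with DMSO. Its groups did not overlap, yet its log2 fold change of -0.55 ± 0.36 did not pass (adjusted p = 0.607), and neither did that of the germinal centre repressor BCL6 (-0.33 ± 0.66, adjusted p = 0.909).

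In the B cell receptor pathway, which relays antigen binding to kinases and calcium, 4 of 34 tested genes fell and none rose, against 0.398% of all genes tested that fell, with a list median of -0.23. This list was chosen with earlier results of these data known, so the share describes its members and is not an independent test of the pathway. LAT2 (ENSG00000086730.15, chromosome 7, 74199652 to 74229834), an adaptor phosphorylated downstream of the receptor, had 32.5, 16.6 and 23.2 CPM with OTX015, against 75.9, 60.6 and 93.4 CPM with DMSO (log2 -1.58 ± 0.24, adjusted p = 0.00114). Its highest OTX015 library reached little more than 32 CPM, under each DMSO library, and it kept its call whichever library was left out and with no depth term (adjusted p = 0.0026). FCRL2, an Fc receptor-like protein that restrains receptor signalling, had 12.4, 16.6 and 18.9 CPM with OTX015, against 54.6, 82.1 and 93.9 CPM with DMSO (log2 -2.24 ± 0.48, adjusted p = 0.0171). PIK3CG, the catalytic gamma subunit of class I phosphoinositide 3-kinase, had 1.38, 2.26 and 1.08 CPM with OTX015, against 6.71, 13.2 and 5.02 CPM with DMSO (log2 -2.38 ± 0.48, adjusted p = 0.0108). The adaptor SASH3 fell as well (-1.15 ± 0.28, adjusted p = 0.0431). Of these 4, FCRL2, PIK3CG and SASH3 lost their call without OTX015 replicate 1. The proton channel gene HVCN1, which also acts in receptor signalling and overlaps TCTN1 on the opposite strand, fell by 2.42 ± 0.49 on the log2 scale (adjusted p = 0.0124).

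Interferon-stimulated genes, which cells raise after type I interferon, had the lowest list median apart from the 2 T cell markers, at -0.99 over 43 tested members. Of these, 39 had a negative fold change, as had 6630 of all 12814 genes tested. There were 4 that fell (APOL6, TRIM22, IFI44L and XAF1), against 0.398% of all genes, and none that rose. IFI44L (ENSG00000137959.14, chromosome 1, 78619922 to 78646145) is the member with the largest fall. It had 1.12, 21.1 and 5.39 CPM with OTX015, against 23.0, 91.6 and 143 CPM with DMSO. Replicates differed by several-fold within both groups, and the highest OTX015 library lay only just under the lowest DMSO library. Its log2 fold change was -4.27 ± 1.04 (adjusted p = 0.0394). APOL6, of the apolipoprotein L family, had 2.76, 4.53 and 1.62 CPM with OTX015, against 12.9, 19.0 and 14.6 CPM with DMSO (-2.37 ± 0.44, adjusted p = 0.00621). XAF1, which binds the apoptosis inhibitor XIAP, had 3.36, 12.1 and 7.01 CPM with OTX015, against 27.1, 60.6 and 54.2 CPM with DMSO (-3.11 ± 0.77, adjusted p = 0.0431). TRIM22, which overlaps OR56B1 on its own strand and TRIM5 on the other, changed by -1.51 ± 0.36 (adjusted p = 0.0369). Without OTX015 replicate 1 none of the 4 was called. In the other lines the same list had a median of -2.52 in TMD8, where 24 members fell, -0.94 in DOHH2, where 1 fell, and -1.69 in Toledo, where 19 fell. Of all 12814 genes tested, 154 fell in TMD8, 53 in DOHH2 and 721 in Toledo. Without the 3 libraries that held genes of another line the medians were -2.49, -0.95 and -0.93, and 30, 5 and 2 members fell, in the same order of lines. Of all 13160 genes tested there, 416, 320 and 87 were called in either direction.

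Of the 14 largest falls 8 remain to be described. IL12B, the subunit shared by the cytokines IL-12 and IL-23, had 1.29, 3.02 and 3.77 CPM with OTX015, against 33.9, 39.3 and 39.2 CPM with DMSO. This was the largest of the named falls, with a ratio of 0.0513 (log2 -4.29 ± 0.88, adjusted p = 0.0171). JAML, a junctional adhesion molecule (-2.31 ± 0.52), CEACAM1, an adhesion molecule with inhibitory motifs (-2.11 ± 0.48), MGAT3, which adds bisecting N-acetylglucosamine (-2.29 ± 0.58), and GALNT5, which starts O-glycosylation (-2.83 ± 0.69), had adjusted p between 0.0225 for JAML and CEACAM1 and 0.0498 for MGAT3. HECW2, a ubiquitin ligase (-3.52 ± 0.72, adjusted p = 0.0131), AKAP5, an anchor of protein kinase A that overlaps ZBTB25 on the opposite strand (-2.11 ± 0.47, adjusted p = 0.0225), and the motor protein MYO10 (-2.32 ± 0.53, adjusted p = 0.0364) complete the set. None of the 14 named falls kept its call without OTX015 replicate 1, and their highest adjusted p with 1 library left out lay between 0.0813 (HECW2 and HVCN1) and 0.297 (PIK3CG).

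Among called falls at low counts, CCR1, a chemokine receptor known to fall under BET inhibitors, had 1 count over the OTX015 libraries and 66 over the DMSO libraries. The ratio of the CPM was 0.0191, with a 95% counting interval of 0.000476 to 0.110. TNFRSF17 (BCMA), a receptor of plasma cells, had 2 counts and 47 counts, a ratio of 0.0536 with an interval of 0.00631 to 0.205. ENSG00000259976.1, a noncoding gene that overlaps ZBTB20 on its strand, had 0 counts with OTX015 and 13 with DMSO and was at least 3.44-fold lower with OTX015 when 3 counts over the group are taken as the limit that 0 allows. At higher levels the noncoding gene PVT1, the neighbour of MYC, changed by -1.16 ± 0.25 (adjusted p = 0.0168), and SORL1, a sorting receptor, by -1.92 ± 0.43 (adjusted p = 0.0225). Each of these 5 lost its call without OTX015 replicate 1, and their highest adjusted p with 1 library left out lay between 0.145 for SORL1 and 0.581 for TNFRSF17 and ENSG00000259976.1.

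Of 27 tested BET proteins and transcription elongation factors, HEXIM1 rose (0.453% of all genes did) and none fell, with a list median of 0.21. BRD2 had 335, 299 and 328 CPM with OTX015, against 201, 233 and 243 CPM with DMSO, so that the groups were apart, but its log2 fold change of 0.46 ± 0.14 did not pass (adjusted p = 0.119; DESeq2 called it). The groups were apart for BRD3 too (0.62 ± 0.31, adjusted p = 0.427), which, with the P-TEFb kinase CDK9 (0.58 ± 0.20, adjusted p = 0.173), was above 0 and did not pass. For CCNT1, the cyclin partner of CDK9, the value was 0.14 ± 0.18 (adjusted p = 0.837).

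Of 16 tested genes known from other work to respond to BET inhibitors, HEXIM1 rose, CCR1 fell and the median was 1.15, the highest of the lists. Of all genes tested 0.453% rose and 0.398% fell. SERPINI1, often read as a marker of BET inhibition in blood cells, had 2.50, 3.77 and 9.70 CPM with OTX015, against 2.45, 2.02 and 0.502 CPM with DMSO (log2 1.24 ± 0.66, adjusted p = 0.467). Histone genes share 6 tested members with that list. Of 18 tested histone genes, 16 had a positive fold change, as had 6184 of all 12814 genes tested. The histone median was 1.08 (0.72 with no depth term), and none passed. H2AC6 had 20.3, 58.1 and 181 CPM with OTX015, against 7.88, 3.74 and 39.7 CPM with DMSO (1.96 ± 0.52, adjusted p = 0.0606). The spread within both groups was wide and the groups overlapped. H2BC21 was similar (2.13 ± 0.56, adjusted p = 0.0589).

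MYC (ENSG00000136997.13), the growth-promoting transcription factor whose fall is the best known effect of BET inhibitors in blood cancers, did not pass in OCILy10. It had 165, 65.6 and 66.8 CPM with OTX015, against 155, 144 and 113 CPM with DMSO. The deep OTX015 library was the highest of the 6, and the shallow OTX015 libraries were the lowest. The log2 fold change was -0.33 ± 0.34 (95% interval -1.03 to 0.36, adjusted p = 0.778), with a log2 ratio of 0.14 within the deep and -0.77 within the shallow libraries. Of 50 tested MYC targets, MYC included, none passed in either direction. A negative fold change was seen for 39, as for 6630 of all 12814 genes tested, with a list median of -0.24. The lowest p was that of MRTO4, a ribosome assembly factor (-0.65 ± 0.19, adjusted p = 0.0903). In the MAX network, the MYC antagonist MXD4 had a log2 fold change of 2.60 ± 0.70 (adjusted p = 0.0628), and none of the 10 tested genes passed.

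Of 37 tested NF-kB genes, which are active in this lymphoma type, 1 fell, against 0.398% of all genes tested. The list median was -0.30. The gene was the cytokine gene LTA (-2.26 ± 0.48, adjusted p = 0.0171). Its OTX015 libraries at 2.15, 9.05 and 13.5 CPM overlapped its DMSO libraries at 7.56, 6.91 and 83.8 CPM. The chemokine CXCL10 had 18.7, 77.7 and 81.4 CPM with OTX015, against 193, 205 and 326 CPM with DMSO, and the groups did not overlap (-2.77 ± 0.85, adjusted p = 0.119). The costimulatory genes CD86 (-1.67 ± 0.55, adjusted p = 0.153) and CD80 (-1.70 ± 0.56, adjusted p = 0.154) followed, and none of these 3 passed. Of 17 tested MHC class II genes RFX5, a factor that activates their promoters, fell (-0.89 ± 0.19, adjusted p = 0.0171), with a list median of -0.39. Both LTA and RFX5 lost their call without OTX015 replicate 1, with adjusted p of up to 0.179 and 0.158 over the libraries left out. Of 17 tested plasma cell genes TNFRSF17 fell (median -0.44), and of 18 tested germinal centre type genes LMO2 rose (median 0.08). Beside these counts, 0.398% of all genes tested fell and 0.453% rose.

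No member passed among 23 tested activated B cell type genes (median -0.43), 23 JAK-STAT and PIM genes (-0.39), 10 pro-survival (-0.01) and 18 pro-death (0.14) BCL2 family genes and caspases, 24 p53 targets (0.21), 14 D-type cyclin and CDK4/6 genes (-0.07), 37 cell cycle and replication genes (0.23), 27 immediate early genes (0.43), 32 autophagy and lysosome genes (0.19), 25 cholesterol synthesis genes (-0.08), 24 ATF4 and ER stress genes (0.04), 15 Notch pathway genes (0.21), 54 ribosomal protein genes (-0.13) and 15 mitochondrially encoded genes (-0.06). Some of these medians depended on the depth term. With no depth term the median was 0.03 for cell cycle, -0.02 for pro-death, -0.22 for ATF4 and ER stress and -0.35 for ribosomal protein genes. It was 0.09 for mitochondrially encoded genes and -0.19 for the germinal centre type genes described above. Some drivers of this lymphoma type and of cell death that BET inhibitors can affect were read one by one. CCND2, the D-type cyclin of these cells, had 306, 304 and 393 CPM with OTX015, against 484, 467 and 1084 CPM with DMSO. The groups did not overlap, but DMSO replicate 3 stood far above the others, and the log2 fold change of -1.14 ± 0.76 did not pass (adjusted p = 0.608). PIM1 (-0.39 ± 0.40, adjusted p = 0.779), the survival gene BCL2 (0.25 ± 0.32, adjusted p = 0.833), the death gene BCL2L11 (0.33 ± 0.20, adjusted p = 0.549) and the cell cycle inhibitor CDKN1A (-0.32 ± 0.42, adjusted p = 0.84) did not pass. The 95% interval for CCND2 ran from -2.70 to 0.42, and changes of that size are not settled by these libraries.

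**Figure D3:**
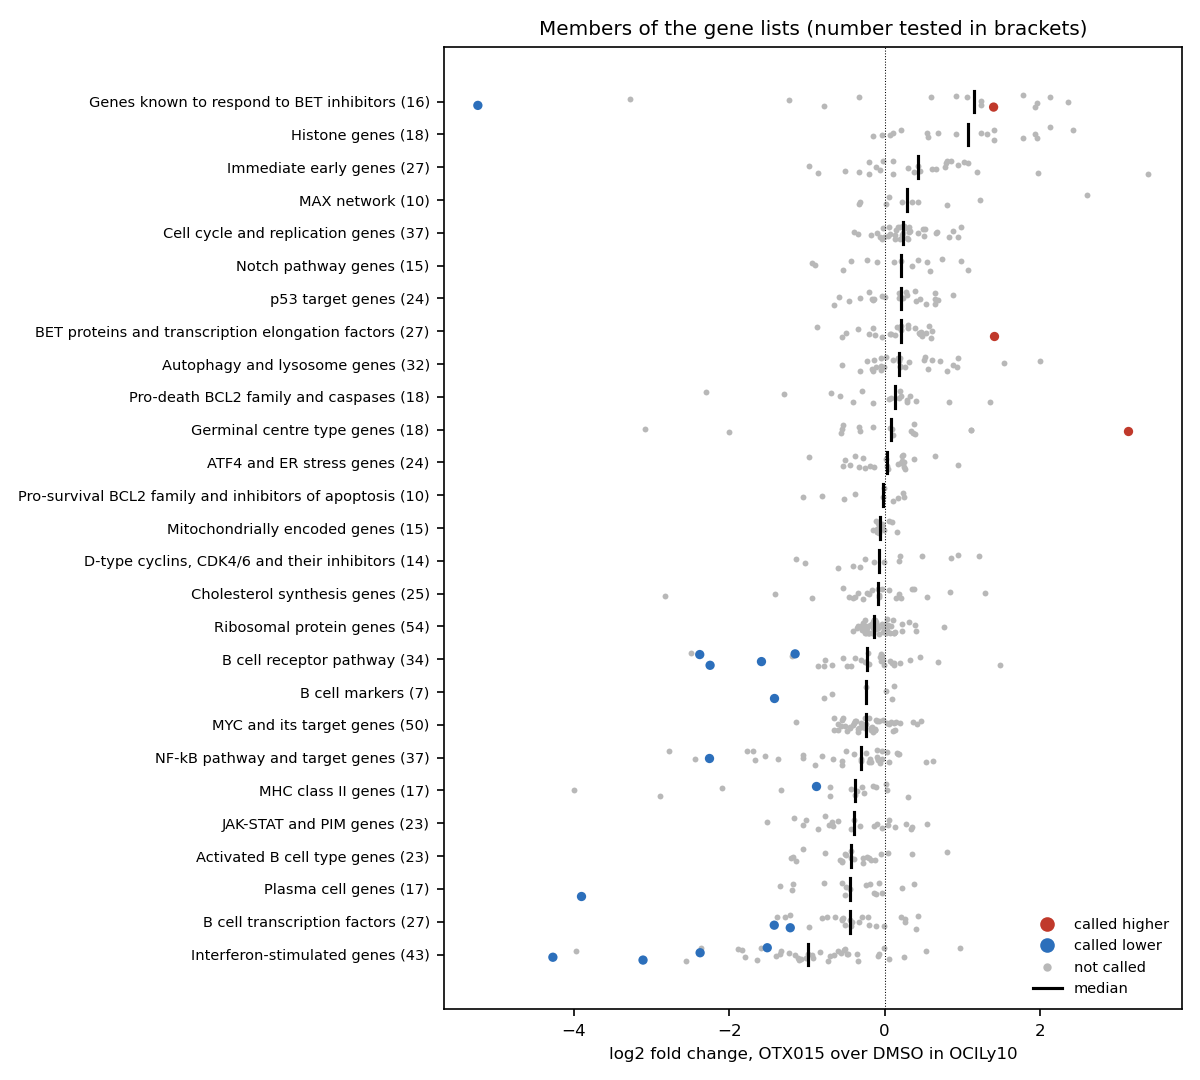
Fitted log2 fold change (OTX015 over DMSO in OCILy10) of each tested member of the gene lists, with the number tested in brackets; red and blue points are members called higher and lower, grey points members not called, and black bars the list medians. The medians run from 1.15 for genes known to respond to BET inhibitors to -0.99 for interferon-stimulated genes, and at most 4 members of a list are called.

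Promoter windows were found for 47 of the 58 rises, 32 of the 51 falls and 9583 of all 12814 genes tested. A TATAAA match on either strand was in 14.9% of the windows of rises, 9.38% of those of falls and 5.66% of all. A GC box (GGGCGG) was in 89.4% of the windows of rises, 56.3% of those of falls and 69.5% of all. The CCAAT box was in 44.7%, 31.3% and 37.5%, the E-box CACGTG that MYC and its partners bind in 4.26%, 9.38% and 10.4%, and the octamer ATGCAAAT in 6.38%, 0% and 1.34%. The interferon element core was in 0% of the windows of rises, 9.38% of those of falls and 3.08% of all. The counts behind these shares are small, 3 windows for the last share of falls, and a match describes letters, not binding.

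The second question was whether OTX015 differed from NEO2734 in the same line. The labels give no dose for either, so the values stand side by side and doses are not known to match. No gene of 12814 passed in edgeR (0%), 153 had an unadjusted p under 0.05, and DESeq2 called 3. ALKBH5 averaged 355 ± 114 CPM with OTX015 and 395 ± 144 CPM with NEO2734 (SD, n = 3 each), a log2 difference of -0.28 ± 0.19 with a 95% interval of -0.68 to 0.11. HEXIM1 averaged 159 ± 73.1 CPM with OTX015 and 157 ± 59.9 CPM with NEO2734 (-0.24 ± 0.22, interval -0.71 to 0.22). DHRS2 averaged 63.7 ± 27.0 CPM with OTX015 and 100.5 ± 37.2 CPM with NEO2734 (-0.33 ± 0.50, interval -1.36 to 0.70). These intervals still hold differences of some size in either direction.

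The 6 lowest unadjusted p between the compounds were read among protein-coding or long noncoding genes with a symbol and at least 5 CPM in a group. DESeq2 called none of these 6. The lowest belonged to CBFA2T3, a transcriptional corepressor, with 14.7 ± 7.51 CPM under OTX015 and 5.57 ± 2.97 CPM under NEO2734 (log2 1.38 ± 0.42, adjusted p = 1). The chemokine CCL4 followed with 2.62 ± 1.82 CPM under OTX015 and 13.7 ± 4.83 CPM under NEO2734 (-2.18 ± 0.67, adjusted p = 1). PAX5 was also among the 6 of lowest p, with 114 ± 22.1 CPM under OTX015 and 74.1 ± 2.59 CPM under NEO2734 (0.65 ± 0.22, adjusted p = 1). The palmitoyltransferase gene ZDHHC16 (-0.51 ± 0.16), the ribosomal RNA transcription factor UBTF (0.50 ± 0.17) and BCAT1, an enzyme of branched-chain amino acids (0.74 ± 0.26), complete the 6, all with an adjusted p of 1. Against the same DMSO libraries 627 genes (4.89%) were called for NEO2734. Because both comparisons share the DMSO libraries, the larger number for NEO2734 is not a test of the difference between the compounds.

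The third question was where the OTX015 response of OCILy10 differed from that of the other lines, each with its own DMSO libraries. OTX015 called 236 genes in TMD8 (1.84%), 152 in DOHH2 (1.19%) and 948 in Toledo (7.4%). Of the 109 genes of OCILy10, 43 (39.4%) were also called with the same sign in TMD8, which is 18.2% of the TMD8 list. In DOHH2 it was 21 (19.3%, or 13.8% of its list) and in Toledo 49 (45.0%, or 5.17% of its list), and none was called with the other sign in any of them. These numbers rest in part on the 3 libraries that held genes of another line. Without them 416 genes were called in TMD8 (3.16%), 320 in DOHH2 (2.43%) and 87 in Toledo (0.661%), and of the 109 genes of OCILy10 54, 30 and 19 were called with the same sign in TMD8, DOHH2 and Toledo in that order. The 11 genes called with the same sign in all 4 lines were HEXIM1, APLP2, CNNM4, HAUS3, HYCC1, MTMR3, SPAG9 and ZSWIM6, which rose, and FCRL2, LAT2 and TTC27, which fell. They were picked out after their values were seen. Without the 3 libraries 10 of the 109 genes were called in all 4 lines, with HAUS3, HYCC1 and SPAG9 no longer among them and the falls APOL6 and SASH3 added. Of the rest, 43 were called in OCILy10 and in no other line, which does not show that they differ between lines.

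In the test of the difference itself, OCILy10 minus the mean of the other 3 lines, 1 gene of 12814 passed (0.0078%), and 363 had an unadjusted p under 0.05. That gene was ALKBH5. Its OTX015 libraries averaged 355 ± 114 CPM in OCILy10, 138 ± 33.1 CPM in TMD8, 119.7 ± 7.17 CPM in DOHH2 and 141 ± 38.9 CPM in Toledo. Its DMSO libraries averaged 58.1 ± 14.5 CPM in OCILy10, 63.5 ± 19.4 CPM in TMD8, 103 ± 13.5 CPM in DOHH2 and 81.7 ± 26.7 CPM in Toledo (SD, n = 3 each). The log2 response of 2.46 ± 0.20 in OCILy10 stood beside 1.12 ± 0.20 in TMD8, 0.23 ± 0.19 in DOHH2 and 0.80 ± 0.20 in Toledo. The difference was 1.75 ± 0.23 on the log2 scale (adjusted p = 0.000177). Without the 3 libraries it was 1.78 ± 0.22 (adjusted p = 8.21e-05) and the Toledo response alone 0.64 ± 0.22, no longer called (adjusted p = 0.155). With no depth term the difference was 1.90 ± 0.34 and missed the threshold (adjusted p = 0.0571), and within the deep libraries alone and the shallow libraries alone it was 1.74 ± 0.26 and 1.70 ± 0.41, without passing.

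TAF9 came next. Its OTX015 libraries averaged 170.0 ± 31.0 CPM in OCILy10, 95.1 ± 44.0 CPM in TMD8, 76.1 ± 20.3 CPM in DOHH2 and 34.0 ± 10.3 CPM in Toledo, against 78.4 ± 14.9, 64.7 ± 18.1, 67.3 ± 27.1 and 47.1 ± 13.03 CPM in the DMSO libraries of the same lines. The difference of 1.29 ± 0.25 did not pass (adjusted p = 0.0918; 0.103 without the 3 libraries), whereas it passed in DESeq2 (adjusted p = 0.00211) and with the log2 library total as the depth term (adjusted p = 0.0433). NUDT17, a Nudix hydrolase gene that overlaps PIAS3 on the opposite strand, had 6.12, 8.30 and 7.01 CPM with OTX015 in OCILy10, against 17.0, 15.3 and 15.6 CPM with DMSO. Its fall in OCILy10 passed (log2 -1.43 ± 0.32, adjusted p = 0.0225), while its difference from the other lines did not (-1.63 ± 0.37, adjusted p = 0.597). Nor did that of SLC25A4 (0.78 ± 0.19, adjusted p = 0.746), PIK3CG (-1.98 ± 0.53, adjusted p = 1) or ZDHHC16 (-0.69 ± 0.19, adjusted p = 1). For PAX5 the log2 response was -1.42 ± 0.22 in OCILy10, -1.34 ± 0.22 in TMD8, -0.98 ± 0.22 in DOHH2 and 0.26 ± 0.22 in Toledo, and for MYC -0.33 ± 0.34 in OCILy10, -2.48 ± 0.36 in TMD8, -0.61 ± 0.33 in DOHH2 and 0.33 ± 0.33 in Toledo. Without the 3 libraries the Toledo values were 0.29 ± 0.24 for PAX5 and 0.26 ± 0.36 for MYC. Against the mean of the other lines neither differed past the threshold (PAX5 -0.73 ± 0.26 and MYC 0.59 ± 0.39, adjusted p = 1 for both).

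**Figure D4:**
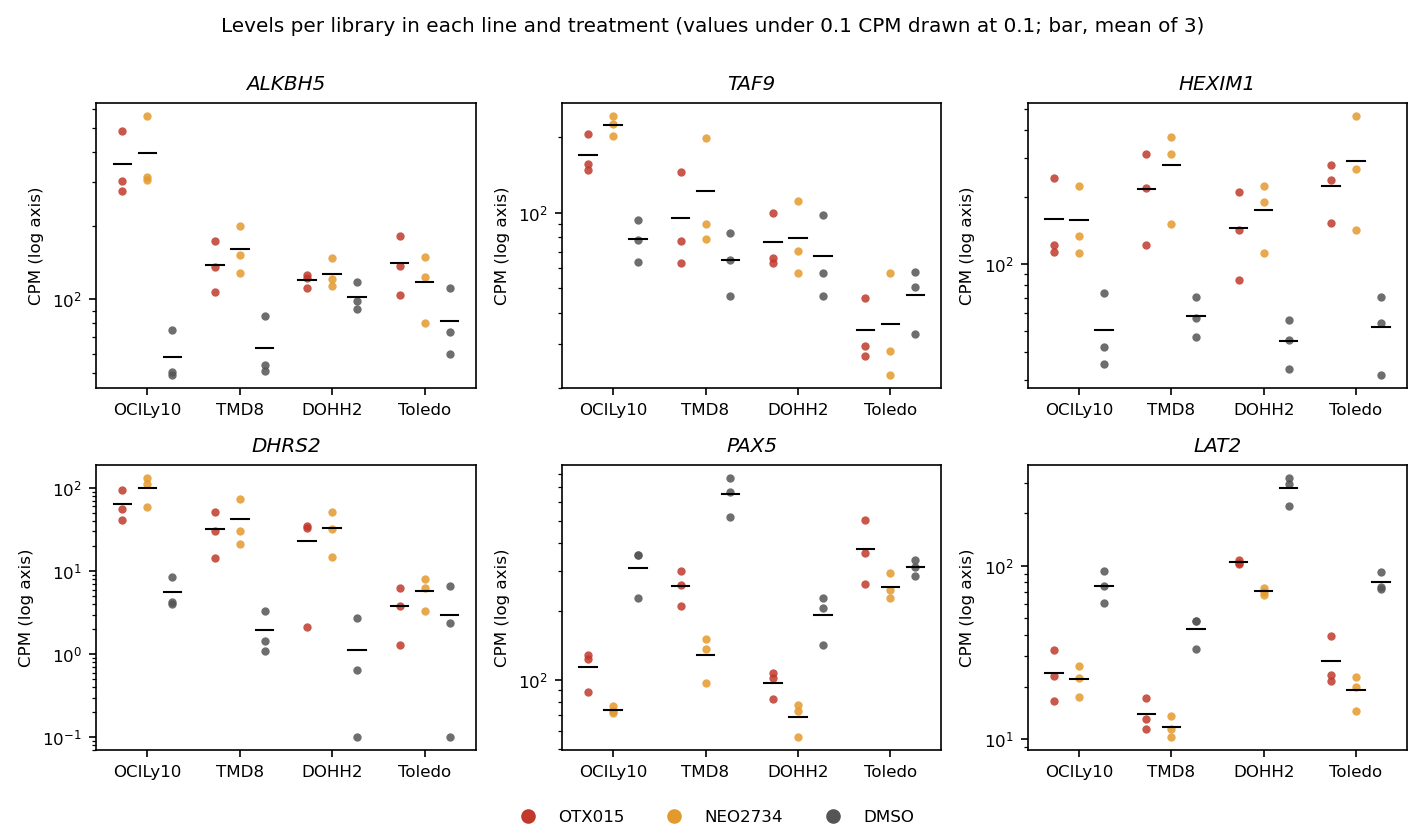
CPM per library (log axis, values under 0.1 drawn at 0.1) of 6 genes in the 4 lines under OTX015 (red), NEO2734 (orange) and DMSO (grey), with a bar at each mean of 3. ALKBH5 with OTX015 is at 276 to 485 CPM in OCILy10 and no higher than 182 CPM in the other lines, while HEXIM1 and LAT2 move the same way in all 4 lines.

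**Figure D5:**
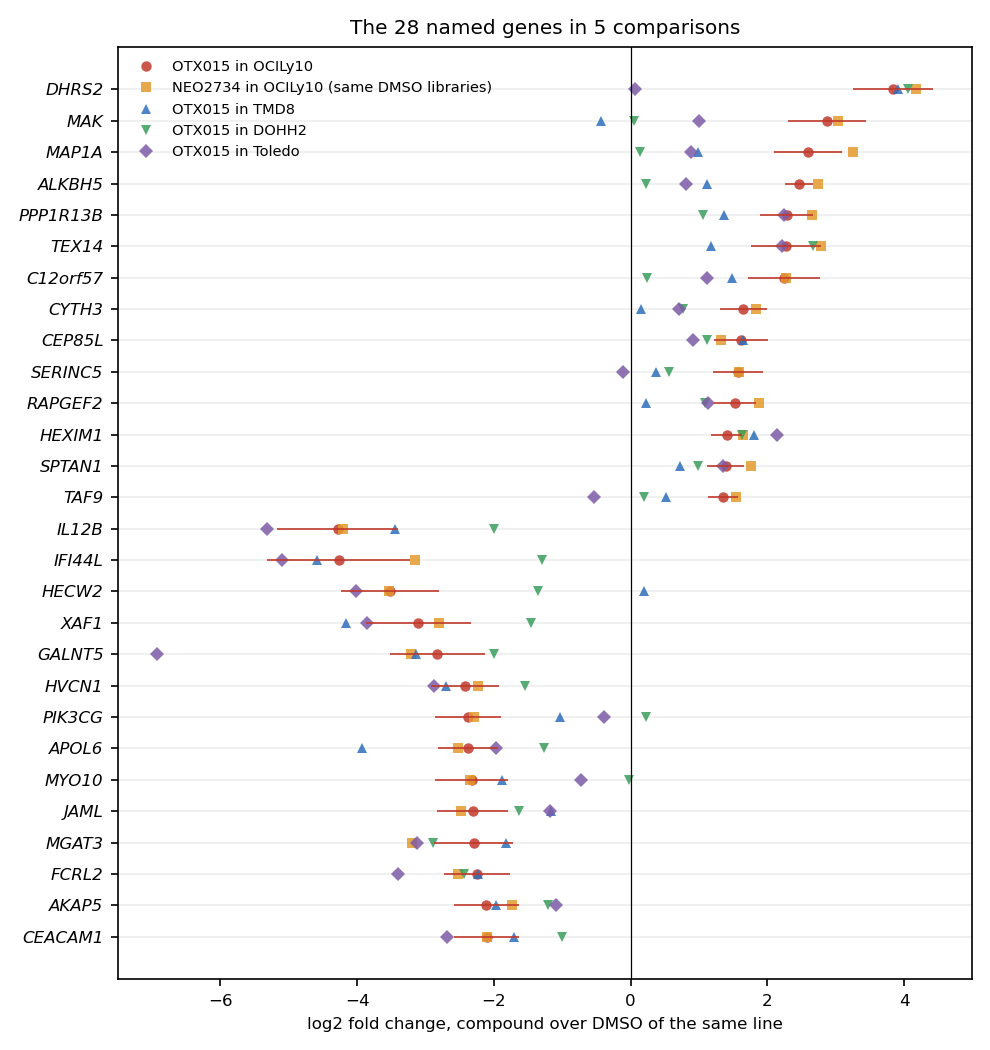
Fitted log2 fold change against DMSO of the same line for the 14 named rises and 14 named falls: OTX015 in OCILy10 (red circles, with SE as a bar), NEO2734 in OCILy10 (orange squares, same DMSO libraries), and OTX015 in TMD8, DOHH2 and Toledo. DHRS2 is at 3.84 in OCILy10, 3.92 in TMD8 and 4.05 in DOHH2 but 0.07 in Toledo. PIK3CG at -2.38 in OCILy10 lies below its values in the other 3 lines. Toledo points use all libraries. Without the 3 libraries that held genes of another line, DHRS2 is at 1.42 ± 0.73 there, not called. In Toledo IL12B then goes from -5.32 to -0.74, HECW2 from -4.02 to -0.81, IFI44L from -5.10 to -2.73 and XAF1 from -3.86 to -2.11. These falls lose their call in Toledo, as do GALNT5, MGAT3 and CEACAM1, while HVCN1, APOL6 and FCRL2 keep theirs. Among the rises ALKBH5 and RAPGEF2 lose their call in Toledo, while HEXIM1, PPP1R13B and SPTAN1 keep theirs.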

How the data were processed

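RNA-seq libraries were made from OCILy10 cells, and the deposited counts are whole-number reads per gene in each of 39 libraries. The authors aligned reads with STAR and used edgeR, per the submitters' processing notes, and the sources used here do not name the gene annotation, the counting tool or the strand setting. A second deposited table, named as normalised, equals the raw counts in 38 columns and differs in 1 that is not compared here, so it was not used.

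The counts were fitted with edgeR 4.0.16 in R 4.3.3, with 13 groups and a depth term (totals over or under 5000000 counts), TMM scaling, 25 residual degrees of freedom and edgeR's filter on low counts, which left 12814 genes. Fold changes are log2 with SE, and p-values are Benjamini-Hochberg adjusted over all genes tested, at a threshold of 0.05, by the two-sided quasi-likelihood test. The script was tested on simulated data, with changes set in genes averaging over 5 CPM in OCILy10. It found 32% of 50 genes with a true log2 of 1 and 22% of 50 with -1. For 2 and -2 it found 86% and 80%. Of 117 calls, 7 were false. A gene that did not pass may therefore still differ, above all when its change is near 2-fold. Alternatives used DESeq2 1.42.0 and limma 3.58.1. Totals per library set the precision, and counting intervals cover counting error only. Gene positions come from GENCODE 29, in which 15668 of 15808 gene identifiers were found when version numbers are ignored, and promoters from RefSeq. Because strand is unknown, overlapping genes are uncertain.

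Genes were named if called, protein coding or long noncoding, averaging 5 CPM or more under OTX015 or DMSO and with groups that did not overlap, the 14 with the largest change in each direction, plus fixed drivers and the lowest p of each list and of the other 2 comparisons. Exceptions are said to be such. Members and lists were chosen with earlier results of these data known. Replicate numbers were not taken to pair the libraries.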

Additional observations from a re-analysis of the deposited data

Results flagged for a closer look

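ALKBH5, which encodes an RNA demethylase, was the 1 gene whose OTX015 response differed between OCILy10 and the mean of TMD8, DOHH2 and Toledo in the test of that difference, by 1.75 on the log2 scale. It was called under 19 of 22 alternatives, with differences between 1.57 and 1.90.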

How the results depend on the processing

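For OTX015 against DMSO the number of genes called was 244 with DESeq2 and 244 with limma-voom, 302 with a depth term for each line, 342 in OCILy10 libraries only (92 shared with the 109), 173 in the 6 compared libraries only, 372 without the 3 libraries that held genes of another line, 9 with no depth term, 1 in shallow libraries only and 0 in deep libraries only, where 1 OTX015 library remains. Leaving out 1 library gave 13 to 108. With the replicate block it was 327 with and 229 without the depth term. Deviations of same-numbered libraries from their group means correlated at 0.66, -0.58 and 0.70, and from the fit with the depth term at -0.06, -0.33 and 0.19. Not every pair was above 0.1, and the numbers were not taken to pair the libraries. Replicate 2 was shallow with OTX015 and deep with DMSO, and deviations within a group are tied to one another. These correlations therefore cannot decide whether the libraries were paired. For OTX015 against NEO2734 DESeq2 called 3, against 0 under the other settings. For OCILy10 against the other lines DESeq2 called 7, the log2 library total as the depth term 2, and no depth term, shallow only and deep only 0. Of 644 values of the 28 named called genes, 447 stayed past the threshold, 197 did not and none changed sign. Among the 14 genes read that were not called, CCNT1 was -0.079 in shallow libraries only and -0.00526 without DMSO replicate 1 (up to 0.28 with another library left out), and MYC was 0.12 in deep libraries only. The cause was not tested. The deposited table named as normalised was not run, since the compared libraries hold the same values there. Depth limits genes under a few CPM in the shallow libraries.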
